A study of Macaca mulatta with 4 samples.

Results

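The genes described here are 10 neuropeptide genes of the amygdala: the precursors CCK, SST, NPY, PENK, PDYN, TAC1, CRH, VIP and NTS, and CRHBP, which encodes the binding protein of the CRH peptide. They were chosen by name, and each matched 1 of the 35395 macaque gene IDs in the count table. RNA was sequenced from the amygdala of infant wild-type rhesus macaques (Macaca mulatta). The control group held 1 female and 1 male library. The sevoflurane group also held 1 female and 1 male library, from animals that had inhaled about 2.5 to 3% of this volatile anaesthetic for 4 hours on each of 3 occasions, near postnatal days 7, 21 and 35. Tissue was collected straight after the last exposure, and the sources used here do not say what the controls breathed. The libraries are called the female and male control and the exposed female and male below. Each library is 1 sex of 1 condition, so 2 libraries stand behind every mean, and the spread within a condition includes the difference between the sexes. The labels do not say which animals or how many gave each library, and the p-values measure only the spread between these libraries.

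Neuropeptides are made as long precursor proteins, cut by prohormone convertases inside dense-core vesicles and released to act on G-protein-coupled receptors. In the amygdala, somatostatin, neuropeptide Y, cholecystokinin and VIP mark classes of GABAergic interneuron, and cholecystokinin is also made by excitatory neurons. Neurons of the central nucleus, the output station of the amygdala, make enkephalin, dynorphin, substance P, neurotensin, CRH and somatostatin, and take part in fear, pain and stress responses.

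Reads on genes ranged from 12477047 to 16293371 per library, and levels are reads per 1000000 reads (CPM) after TMM scaling. The tissue label was set against marker genes. SLC17A7 and LMO3, genes of excitatory neurons, were at 792 to 1329 and 392 to 1175 CPM in the 4 libraries. The listed central nucleus and striatal-type markers differed widely in level. ISL1 had 0 reads in both female libraries, 3 in the male control and 4 in the exposed male. PRKCD and MEIS2, of the same list, were at 9.92 to 63.0 and 15.2 to 33.0 CPM, and were picked with their values known. The male control library stood apart by its choroid plexus markers. The summed level of the 11 listed choroid plexus genes was 19502 CPM there, against 23.7 in the female control, 38.4 in the exposed female and 12.3 in the exposed male library. Of the 15417 genes tested, 6278 (40.7%) differed between conditions at a Benjamini-Hochberg adjusted p under 0.05 by edgeR's quasi-likelihood test, the threshold for a call throughout; 21.3% were higher and 19.4% lower. These shares are the background for each count of calls between conditions below. Scaling by library totals moved the median over all tested genes (log2) from 0.0040 to 0.24, and changed the share of calls that were higher from 52.3% to 63.3%.

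Neuropeptide precursors were lower after sevoflurane or did not pass the test. All 10 genes passed the filter on low counts. CCK, SST, NPY, PENK and PDYN fell, and TAC1, CRH, CRHBP, VIP and NTS were not called. No gene of the 10 was called higher by edgeR or by DESeq2, and 0 were higher at an unadjusted p under 0.05. The 5 of 10 that fell stand beside 19.4% of all tested genes called lower. For 6 of the 10, both sevoflurane libraries lay below both controls, which held for 37.3% of all tested genes. The median log2 fold change of the 10 genes was −1.61, beside 0.0040 for all tested genes. Their reads together made up 0.156% and 0.203% of all reads in the female and male control libraries, and 0.0618% and 0.0460% in the exposed female and male libraries. In bulk tissue, fewer cells that make a peptide and less RNA per cell cannot be told apart. Without the exposed male library 3 of the 10 genes were called lower, and 4 without the exposed female library.

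**Figure D1:**
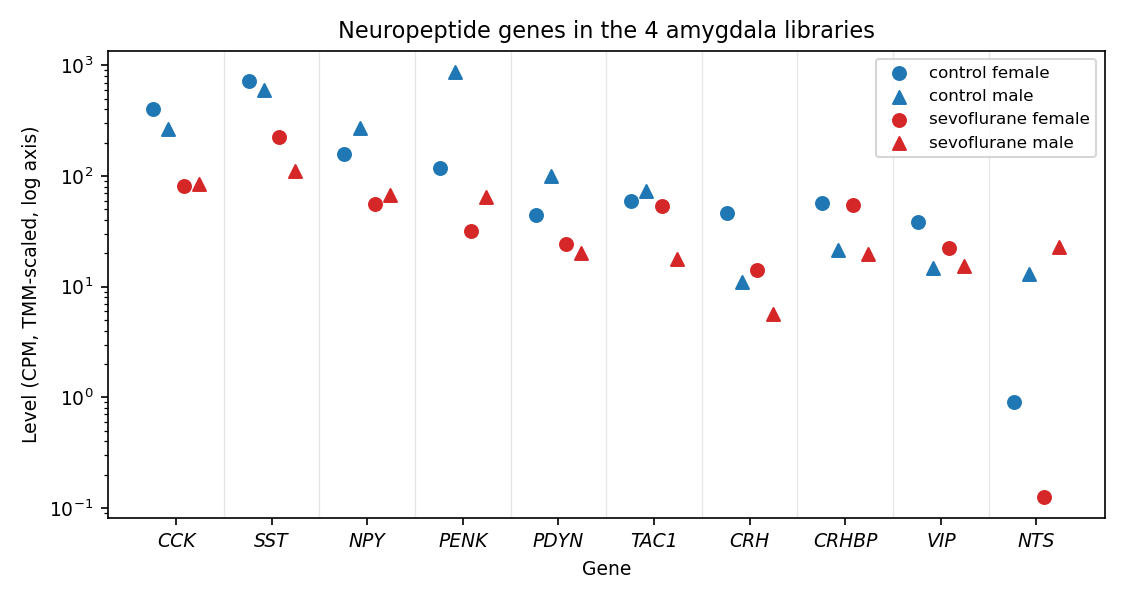
Level of each neuropeptide gene (CPM after TMM scaling, log axis) in each of the 4 libraries, with controls in blue, sevoflurane in red, females as circles and males as triangles. The red points lie below the blue points for CCK, SST, NPY, PENK, PDYN and TAC1, and the groups overlap for CRH, CRHBP, VIP and NTS.

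CCK, SST and NPY fell, with the conditions apart in each. CCK, the precursor of cholecystokinin, stood at 408 CPM in the female control, 269 in the male control, 81.5 in the exposed female and 84.7 in the exposed male library. Both sevoflurane levels were close to each other and below both controls. CCK fell by 2.02 ± 0.30 (SE) on the log2 scale, from 338 ± 98.2 to 83.1 ± 2.23 CPM (SD, n = 2), with an edgeR adjusted p of 0.00434.

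SST encodes somatostatin, an inhibitory peptide of dendrite-targeting interneurons and central nucleus neurons. Its level was 729 CPM in the female control and 601 in the male control library, against 226 in the exposed female and 111 in the exposed male. The groups did not overlap, and the exposed male library was the lowest. SST fell by 1.98 ± 0.39 (log2, edgeR adjusted p = 0.0102), and by 2.57 without the exposed female library.

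NPY encodes neuropeptide Y, often made together with somatostatin and known to reduce anxiety-like behaviour. It was at 158 CPM in the female control, 271 in the male control, 56.0 in the exposed female and 67.4 in the exposed male library. Here the male was the higher library in each condition, and the conditions did not overlap. NPY fell by 1.80 ± 0.34 (log2, edgeR adjusted p = 0.00872). CCK, SST and NPY stayed called lower in 9 of 9 alternative fits, including the 4 that each left out 1 library.

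Both opioid precursors fell, but with more spread between controls. PENK, from which the enkephalins are cut, was at 118 CPM in the female control and 872 in the male control library, and at 31.7 in the exposed female and 65.2 in the exposed male. The male control library was far above the other 3. PENK fell by 3.35 ± 0.92 (log2, edgeR adjusted p = 0.0291). Without the male control library the log2 fold change was −1.31 (adjusted p = 0.0488), and without the female control −4.14. The call was lost without the exposed female (−2.91, adjusted p = 0.124) or the exposed male library (−3.96, adjusted p = 0.0854).

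PPP1R1B and RGS9, markers of striatal-type neurons, were also highest in the male control library. The 13 listed markers of striatal-type and central nucleus neurons summed to 292 CPM in the female control, 1700 in the male control, 236 in the exposed female and 305 in the exposed male library. PPP1R1B, a phosphatase regulator of dopamine-receptive neurons, stood at 196, 1336, 82.5 and 115 CPM in that order, and RGS9, a striatal regulator of G-protein signalling, at 9.33, 144, 6.27 and 7.56 CPM. Of the 12 tested, 4 were called higher and 3 lower, with a median log2 fold change of 0.37. PPP1R1B changed by −2.95 ± 0.83 and RGS9 by −3.47 ± 1.13. Without the male control library neither was called, at −1.01 and −0.46. Without the female control they stood at −3.73 and −4.36. Without the exposed female, and without the exposed male, both calls were lost (adjusted p from 0.114 to 0.172). RGS9 was also not called with library totals (adjusted p = 0.0601) or with DESeq2 (0.0506). RXRG, a retinoid receptor, was at −2.72 ± 0.58 (−1.93 without the male control, −3.31 without the exposed female, and not called without the exposed male library, −2.30, adjusted p = 0.0634). The genes called higher included FOXP2, a transcription factor, with 1 read in controls and 270 after sevoflurane. This is a ratio of 236 (95% counting interval 42.1 to 9374). FOXP2 passed the filter on low counts only through the sevoflurane libraries, so its call is no separate support for a rise. DRD1, a dopamine receptor, was called higher at 3.03 ± 0.56 (3.70 without the male control library and 2.39 without the exposed male). TSHZ1, a transcription factor, was at 2.99 ± 0.83 (4.85 without the female control and 2.20 without the male control), and was not called without the exposed female (2.53, adjusted p = 0.126) or the exposed male library (3.35, 0.0662). In this list 3 genes were called without the exposed female library and 2 without the exposed male. DRD2, another dopamine receptor, was at 9.13, 47.9, 7.03 and 9.48 CPM in the female control, male control, exposed female and exposed male libraries (−1.78 ± 0.74, edgeR adjusted p = 0.0976). PRKCD, a kinase, was at 9.92, 63.0, 14.7 and 36.4 CPM in that order (−0.51 ± 0.84, adjusted p = 0.650). DRD2 and PRKCD lie outside the rule for named genes and were added with their values known. The part of striatal-type and central nucleus neurons in the PENK result was not tested.

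PDYN, the precursor of the dynorphins that act on the kappa opioid receptor, was at 44.4 CPM in the female control, 101 in the male control, 24.4 in the exposed female and 20.1 in the exposed male library. The groups did not overlap, and the male control was again the highest. PDYN fell by 1.70 ± 0.43 (log2, edgeR adjusted p = 0.0230). Its call was lost without the male control (−1.03, adjusted p = 0.0962), the exposed female (−1.84, 0.0640) or the exposed male library (−1.57, 0.105).

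TAC1, the precursor of substance P and neurokinin A, was at 59.7 CPM in the female control, 73.4 in the male control, 53.3 in the exposed female and 17.7 in the exposed male library. The exposed male library was low, and the exposed female was just under the female control. The log2 fold change was −0.91 ± 0.51 (edgeR adjusted p = 0.196). With condition and sex as terms it was −1.10 and called (adjusted p = 0.0308). It was also called without the exposed female library (−1.90, adjusted p = 0.0179).

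CRH encodes corticotropin-releasing hormone, the peptide that starts the endocrine stress response and is also a transmitter of the central nucleus. It was at 46.2 CPM in the female control, 11 in the male control, 14.2 in the exposed female and 5.70 in the exposed male library. The exposed female lay above the male control, so the groups overlapped, while within each sex the sevoflurane library was the lower. The log2 fold change was −1.52 ± 0.74 (edgeR adjusted p = 0.145). It was −1.34 and called with condition and sex as terms (adjusted p = 0.0107), and −2.25 and called without the male control library (adjusted p = 0.00457). Without the female control library it was −0.13.

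CRHBP, whose product binds CRH and limits its action, was at 56.8, 21.3, 54.6 and 19.7 CPM in the female control, male control, exposed female and exposed male libraries. Its levels followed sex and not condition, with a log2 fold change between conditions of −0.07 ± 0.62 (edgeR adjusted p = 0.935). Its sign turned with library totals (0.15), without the female control (0.82) and without the exposed male library (0.49). CRH reads per 100 CRHBP reads, a ratio within each library that needs no scaling, were 81.4 in the female control, 51.7 in the male control, 26.1 in the exposed female and 28.9 in the exposed male library. The 2 groups did not overlap in this ratio, which was chosen after the values were seen and was not tested.

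VIP, the marker of interneurons that inhibit other interneurons, was at 38.3 CPM in the female control, 14.7 in the male control, 22.3 in the exposed female and 15.2 in the exposed male library. The groups overlapped, and both males were below both females. The log2 fold change was −0.50 ± 0.51 (edgeR adjusted p = 0.458), and 0.38 without the female control library.

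NTS, the precursor of neurotensin, was at 0.913 CPM in the female control, 13.0 in the male control, 0.127 in the exposed female and 22.9 in the exposed male library. Both females were near the limit of detection, with 14 and 2 reads, and both males were well above it, with 146 and 334. Between conditions the log2 fold change was 0.74 ± 1.76 (edgeR adjusted p = 0.759). It was −0.19 with condition and sex as terms, −0.13 without the female control library and −5.67 without the exposed male.

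**Figure D2:**
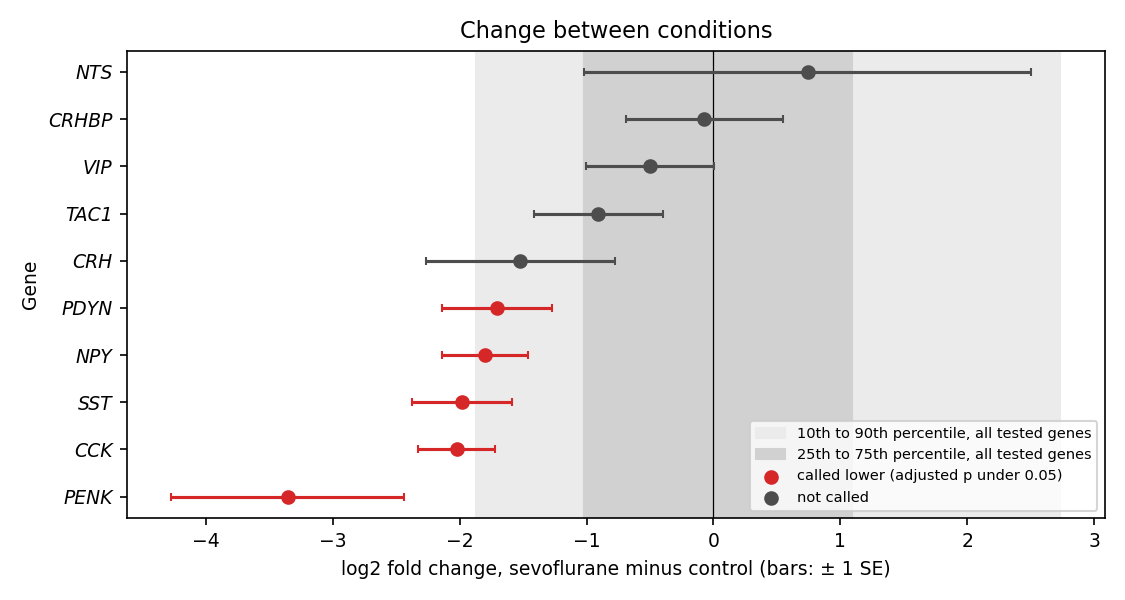
Log2 fold change of each neuropeptide gene between conditions (sevoflurane minus control, x axis, bars ± 1 SE from edgeR), over grey bands that hold the middle of all tested genes. PENK, CCK and SST lie below the 10th percentile of all tested genes (−1.87), and NTS has the widest bar.

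The peptide genes were set against GAD1 and GAD2, the enzymes that make GABA, within each library. These enzymes and the vesicular GABA transporter SLC32A1 were not called, and lie outside the rule for named genes. GAD1 changed by 0.30 ± 0.31, turning to −0.037 without the male control library, GAD2 by 0.39 ± 0.26 and SLC32A1 by −0.93 ± 0.42. SLC32A1 was called with condition and sex as terms (−1.04, edgeR adjusted p = 0.0134) and without the exposed female library (−1.64, 0.0202). SST reads per 100 GAD1 and GAD2 reads were 150 in the female control, 178 in the male control, 39.8 in the exposed female and 23.7 in the exposed male library. For CCK the same ratio was 83.9, 79.7, 14.4 and 18.1 in that order, and for NPY it was 32.5, 80.5, 9.86 and 14.4. On this measure CCK, SST, NPY, PENK, PDYN, TAC1 and CRH were lower in both sevoflurane libraries than in either control. CRHBP and NTS overlapped. VIP was at 7.88, 4.35, 3.92 and 3.26, so its groups were narrowly apart. These ratios are descriptions chosen with the levels known, and the share of all tested genes apart on this measure was not counted. They depend on the divisor. SLC32A1 stood at 96.1 CPM in the female control, 82.4 in the male control, 65.3 in the exposed female and 28.4 in the exposed male library. Ratios to SLC32A1 were not made.

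**Figure D3:**
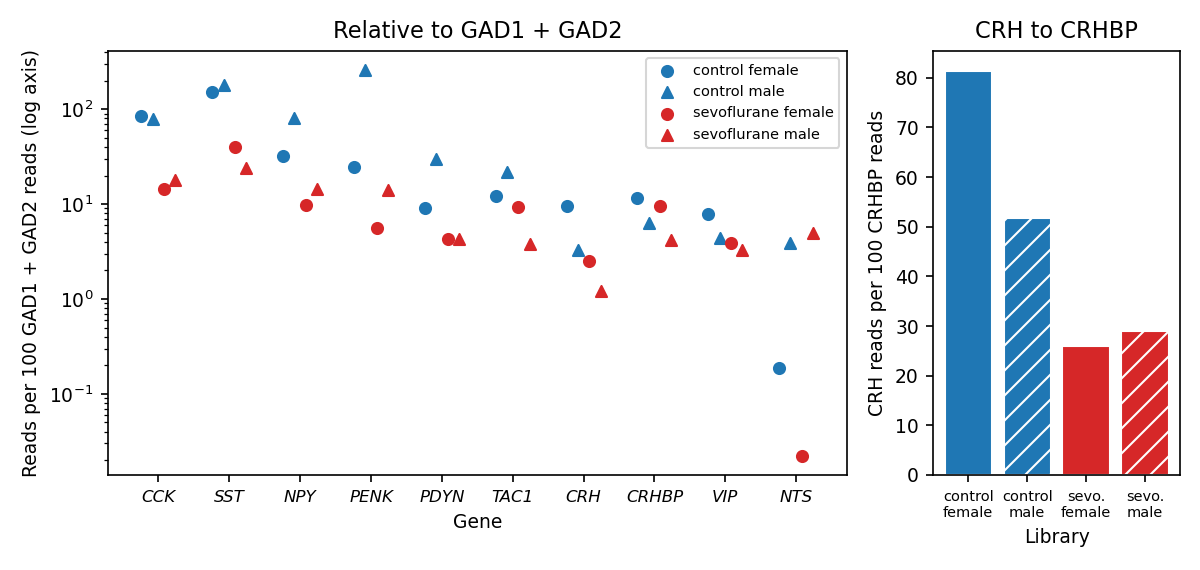
Left, reads of each neuropeptide gene per 100 GAD1 and GAD2 reads (log axis) in the 4 libraries, with controls in blue, sevoflurane in red, females as circles and males as triangles. Right, CRH reads per 100 CRHBP reads in each library, which were 81.4 and 51.7 in controls and 26.1 and 28.9 after sevoflurane.

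The sexes were compared with condition kept as a term, a fit with 1 residual degree of freedom. Of the 10 genes, NTS and PENK were called higher in males and CRH and CRHBP lower in males, beside 1.84% of all tested genes called in either direction. NTS was higher in males by 5.16 ± 0.72 (log2, edgeR adjusted p = 0.000813), with a male minus female difference of 3.64 in controls and 6.43 after sevoflurane. PENK was higher in males by 1.97 ± 0.39 (adjusted p = 0.0131), by 2.88 in controls and 1.04 after sevoflurane. CRH was lower in males by a log2 difference of −1.70 ± 0.40 (adjusted p = 0.0383), and CRHBP of −1.44 ± 0.32 (adjusted p = 0.0290). The CRHBP difference was −1.41 in controls and −1.46 after sevoflurane. With sex as the only term none of the 10 was called by edgeR (1 at an unadjusted p under 0.05).

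Between the sexes 0 of 19 tested receptors were called higher in males and 2 lower, and 1 of 12 central nucleus and striatal-type markers was called, higher. CRHR1, the main CRH receptor, was at 57.5 and 35.6 CPM in the control and exposed female libraries and at 18.6 and 12.4 in the males (male minus female −1.57 ± 0.34, edgeR adjusted p = 0.0247). VIPR1, a VIP receptor, differed by −2.74 ± 0.41. PRKCD, a kinase that marks a class of central nucleus neurons, was higher in males by 1.98 ± 0.40. These 3 genes lie outside the rule for named genes and were chosen after their values were seen. In the oligodendrocyte list, 4 of 10 genes were called higher in males. Sex, the animal and the exact tissue taken cannot be told apart with 1 library of each sex per condition.

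**Figure D4:**
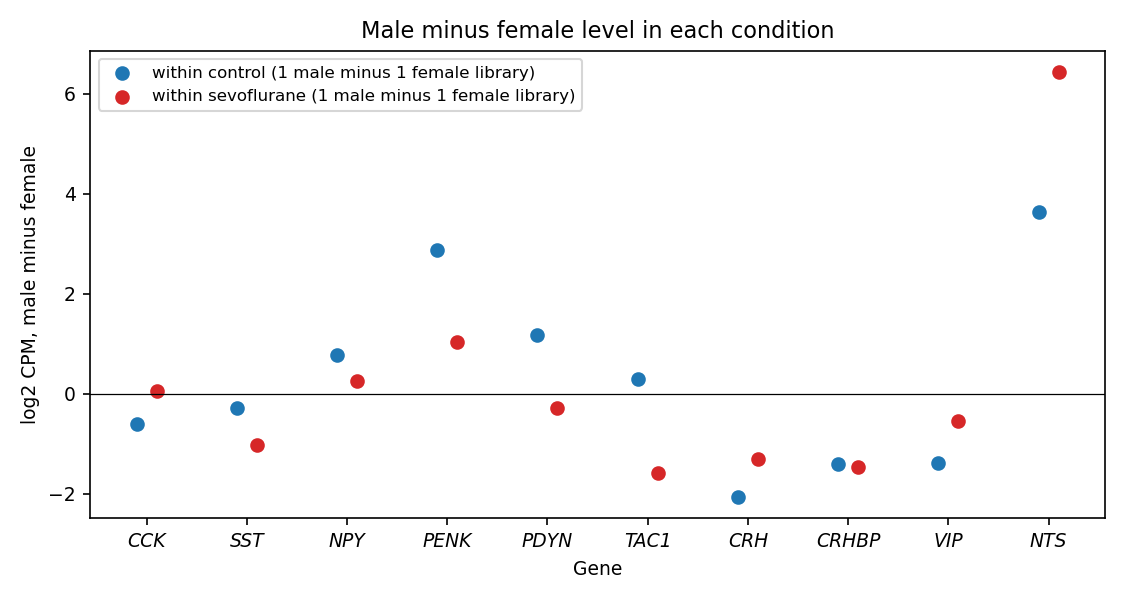
Male minus female difference in log2 CPM (prior count 2) for each neuropeptide gene, within controls (blue) and within sevoflurane (red), each from 1 male and 1 female library. NTS, PENK and NPY lie above 0 and CRH, CRHBP, VIP and SST below 0 in both conditions, while CCK, PDYN and TAC1 change sign.

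Most other precursors pointed the same way as these genes. Of 35 other neuropeptide precursors in the file, 19 passed the filter on low counts. Of these 19, 9 were called lower and 0 higher (0 higher at an unadjusted p under 0.05 and 0 by DESeq2), with a median log2 fold change of −1.83. Over all tested genes 19.4% were called lower. Among those called lower, AVP (vasopressin), HCRT (orexins), GAL, POMC and NPW had at most 10 reads in each sevoflurane library. They passed the filter only through the controls, where they were high. Their calls and signs were thus favoured by the filter and are no separate support for the direction. A negative value was found in 17 of the 19, beside 49.9% of all tested genes. AVP, HCRT and POMC are also in a list of hypothalamic and thalamic markers. That list summed to 40.1, 69.8, 37.0 and 30.6 CPM in the female control, male control, exposed female and exposed male libraries. Of its 10 tested genes 1 was called higher and these 3 lower. The part of such tissue in the fall of the other precursors was not tested. GAL, the galanin precursor, changed by −3.60 ± 0.91, and POMC, the precursor of melanocortins and beta-endorphin, by −3.57 ± 1.0. NPW, the neuropeptide W precursor, had 13, 48, 2 and 0 reads in the female control, male control, exposed female and exposed male libraries, a ratio of controls over sevoflurane of 34.8 (95% counting interval 9.24 to 294). All 3 had low reads, and leaving out any library other than the female control cost them their calls. Without the male control library GAL was at −2.41 (edgeR adjusted p = 0.161), POMC at −1.76 (0.276) and NPW not called (0.160). Without the exposed female or the exposed male library the adjusted p was 0.118 or 0.100 for GAL, 0.114 or 0.144 for POMC and 0.0637 or 0.138 for NPW. Without the female control library GAL was at −4.23, POMC at −4.34 and NPW at −5.83. In the whole list 6 genes were called without the male control, 1 higher and 5 lower without the exposed female, and 2 without the exposed male library.

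The enzymes that cut precursors did not share this direction. Of 12 processing genes tested, 1 was called higher, 1 lower and 10 were not called, with a median of 0.21. This turned to −0.03 without the male control library and −0.06 without the exposed male. With condition and sex as terms 2 were called higher and 2 lower. PCSK1N, whose product proSAAS inhibits the convertase PCSK1, fell from 1083 ± 359 to 58.4 ± 31.6 CPM (−4.21 ± 0.51, edgeR adjusted p = 0.00267, and −4.89 without the exposed female library). CPD, a carboxypeptidase, rose from 80.1 ± 1.33 to 263 ± 140.0 CPM (1.72 ± 0.40, adjusted p = 0.0179, and 1.04 without the exposed male library).

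Genes of the dense-core vesicle, the compartment that stores peptides, were called in both directions. Of 12, 4 rose and 3 fell, beside 21.3% and 19.4% of all tested genes, with a median of −0.27. CCDC186 and CADPS2, which act in vesicle maturation and release, rose by 2.60 ± 0.33 and 2.33 ± 0.33, and PTPRN2, a vesicle membrane protein, by 1.97 ± 0.27. VGF, a secreted granin-like precursor, fell by 2.03 ± 0.55 (log2). VGF was at −1.44 without the female control and −2.90 without the exposed female library, and lost its call without the exposed male (−1.49, edgeR adjusted p = 0.0872). PTPRN (−1.25 ± 0.36) and HID1 (−1.03 ± 0.26) also fell. PTPRN was not called with library totals (adjusted p = 0.0690), without the female control (0.0552) or without the exposed male (0.0934). HID1 was not called with library totals (0.0509), without the male control (0.111) or without the exposed male (0.0898). Without the exposed male library 3 of the 12 were called, all higher.

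Receptors for these peptides were called in both directions. Among the 19 that could be tested 3 rose and 1 fell, beside 21.3% and 19.4% of all tested genes, with a median of −0.54. SSTR1, a somatostatin receptor, rose from 1.02 ± 0.0618 to 23.4 ± 1.96 CPM (4.51 ± 0.43, edgeR adjusted p = 0.00187). SORT1, which binds neurotensin and sorts proteins in the secretory pathway, rose by 2.93 ± 0.31 (log2). NPY1R, a neuropeptide Y receptor, rose by 3.44 ± 0.80, which was 5.41 without the female control and 2.64 without the male control library, and its call was lost without the exposed female (3.18, adjusted p = 0.0632) or male (3.68, 0.0503). NTSR2, a neurotensin receptor of astrocytes, fell by 1.93 ± 0.54 (log2), a call lost without the male control (−1.15, adjusted p = 0.115), the exposed female (−1.56, 0.119) or the exposed male library (−2.40, 0.0601). Without the female control library 6 receptors rose and 2 fell with a median of 0.50, and without the exposed male 2 rose and 0 fell.

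**Figure D5:**
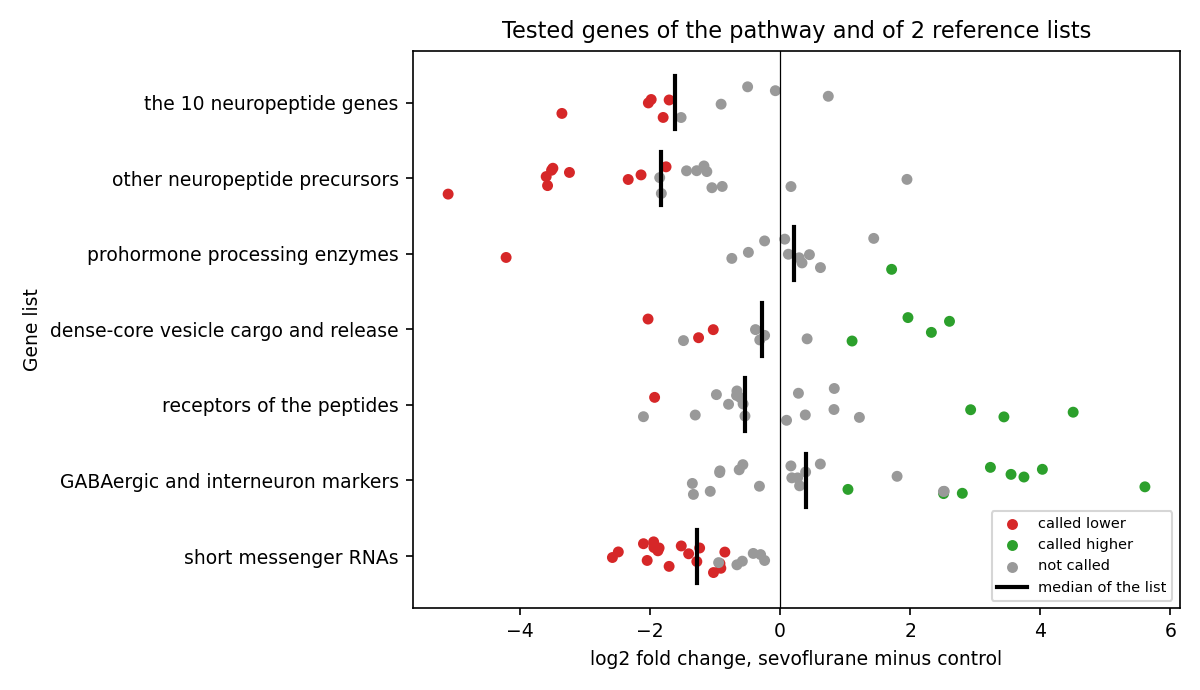
Log2 fold change between conditions (sevoflurane minus control, x axis) of each tested gene in the neuropeptide lists and in 2 reference lists, with genes called lower in red, called higher in green, not called in grey, and the median of each list as a black line. The 10 neuropeptide genes (median −1.61) and the other precursors (−1.83) lie mainly to the left, and the short messenger RNAs also do (−1.28).

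Markers of neurons and a class of transcript give the setting of these values. Of 25 GABAergic and interneuron markers, 8 rose and 0 fell by edgeR, beside 21.3% and 19.4% of all tested genes, with a median of 0.39. At an unadjusted p under 0.05 by edgeR 1 was lower, and 0 were called lower by DESeq2. Their summed level was 1798 and 2078 CPM in the female and male control libraries and 2103 and 1975 in the exposed female and male. RELN, the reelin gene, rose by 3.75 ± 0.74 (4.91 without the female control, 3.09 without the male control and 2.82 without the exposed female library). NOS1, a gene of interneurons that also make somatostatin and neuropeptide Y, rose by 4.03 ± 0.72 (4.86 without the male control, and not called without the exposed male, 3.39, edgeR adjusted p = 0.0524). PROX1, a transcription factor, had 3 reads in controls and 192 after sevoflurane, a ratio of 56.1 (95% counting interval 18.9 to 274). It was not called without the exposed female library. PROX1 passed the filter on low counts only through the sevoflurane libraries, so its call is no separate support for a rise. With condition and sex as terms 11 markers were higher and 4 lower, without the female control 10 and 3, and without the exposed male 4 and 0.

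Of 14 general neuron markers, 3 were called higher and 2 lower, with a median of −0.02 and sums from 10480 to 11524 CPM. That sum and median hide large changes in both directions. MAP2, a dendritic microtubule protein, was at 14.5 and 7.82 CPM in the female and male controls and at 992 and 1551 in the exposed female and male, and rose by 6.82 ± 0.50 (log2). SYT1, a calcium sensor of synaptic vesicles, rose by 5.24 ± 0.77 (6.83 without the female control and 4.48 without the male control library). TUBB3, a neuronal tubulin, fell by 1.46 ± 0.29 (log2). SLC1A2, an astrocyte glutamate transporter, rose by 4.30 ± 0.41 (log2). So the markers of a cell type did not move together, and the part of this pattern in the peptide results was not tested.

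Of 12 excitatory neuron markers 0 were called higher (0 at an unadjusted p under 0.05, 0 by DESeq2) and 1 lower, which was NRGN, a calmodulin-binding protein (−2.48 ± 0.43, and −3.07 without the exposed female library). Leaving out the female control, or adding sex as a term, gave 3 higher and 1 lower in that list. Among glial lists, 6 of 10 microglia markers were called lower and 0 higher (0 at an unadjusted p under 0.05, 0 by DESeq2). Their summed levels were 485 and 444 CPM in the female and male controls and 184 and 246 in the exposed female and male. Of 10 astrocyte markers 1 was called higher and 4 lower, and of 10 endothelial markers 2 and 3. The part of these cell types in the peptide results was not tested.

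Of 23 short messenger RNAs of the proteasome core and spliceosome, 0 were called higher (0 at an unadjusted p under 0.05, 0 by DESeq2) and 17 lower, with a median of −1.28, and 11 were lower without the male control library. Precursors of neuropeptides are typically short messages too. Transcript length was not measured, and its part in the fall of the peptide genes was not tested.

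Each gene's profile over the 4 libraries was compared with 52 other neuropeptide pathway genes by the root mean square difference of centred log2 CPM. The nearest to CCK was GRP, the precursor of gastrin-releasing peptide, at 0.0721. GRP was at 71.8 CPM in the female control, 47.8 in the male control, 14.0 in the exposed female and 13.2 in the exposed male library, and fell by 2.14 ± 0.33 (log2, edgeR adjusted p = 0.00489). The nearest to SST was TAC3, the neurokinin B precursor, at 0.208, which fell by 2.33 ± 0.63 (log2; −3.18 without the exposed female, and not called without the exposed male library, −1.80, adjusted p = 0.109). NPY and PDYN were each other's nearest, at 0.252. The others were GNRH1 for TAC1 (0.119), SCG3 for VIP (0.139), NMU for CRH (0.183), VIP for CRHBP (0.354), GAL for PENK (0.432) and QPCT for NTS (1.80). The profile of NTS thus had no close match in these lists. These distances rest on 4 libraries and carry no test.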

How the data were processed

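The table the authors deposited holds raw read counts per Ensembl macaque gene ID, 1 column per library. Reads were aligned with HISAT2, per the submitters' processing notes. The sources used here do not give its version, the counting program, the build, the annotation or the strandedness. RefSeq (assembly T2T-MMU8v2.0) lists a noncoding RNA overlapping SST and another overlapping PDYN, so those counts are less certain. A gene-ID table gave symbols for 24173 IDs.

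Genes were filtered with edgeR 4.0.16 (filterByExpr, minimum count 10), scaled by TMM and tested across all 15417 genes with the quasi-likelihood test, Benjamini-Hochberg adjusted. Condition was the only term (2 residual degrees of freedom); sexes were compared with condition and sex. SEs were derived from the F statistic. DESeq2 1.42.0, other scalings, no filter and leaving out each library were alternatives. Counting intervals are exact binomial and cover counting error only. All 4 columns were used. The code was tested on simulated data.

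The 10 genes and 16 other lists were chosen with earlier results of these data known. Besides the 10, the rule for named genes allowed at most 3 called genes per list and direction, by size of change, and the gene nearest to each. Not all of those are printed, and the choice among them was made after their values were seen. Counts per list and other single genes under each alternative were added after seeing the data. Of 252 listed symbols, 7 had no ID match.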

Additional observations from a re-analysis of the deposited data

Results flagged for a closer look

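VIP and NTS pointed opposite ways in the sexes between conditions. On log2 CPM, VIP differed by −0.78 between the female libraries and by 0.056 between the male libraries. NTS differed by −1.98 between the female libraries and by 0.82 between the male libraries. With 1 library per sex and condition, the difference between the sexes in these effects was not tested. The NTS reads in females were 14 and 2, and the ratio of control over sevoflurane there was 7.21 with a 95% counting interval of 1.66 to 65.4, which covers counting error only. In males that ratio was 0.565 (0.462 to 0.689). For VIP the male ratio was 0.961 (0.781 to 1.18), an interval that includes equal levels, and the female ratio was 1.72 (1.5 to 1.97).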

How the results depend on the processing

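With 2 libraries per condition, single libraries set several values. The count of the 10 genes called between conditions was 5 in the reported fit, 7 with condition and sex as terms and 7 without the count filter, 5 with the other scalings and with DESeq2, and 3 to 5 with each library left out. Over all tested genes it was 6278, 7825 with condition and sex as terms, and 3469 to 5800 with each library left out. Between the sexes 0 of the 10 genes and 0 of all tested genes were called by edgeR with sex as the only term (1 and 168 at an unadjusted p under 0.05). Of all tested genes 603 were called without the count filter, against 283. The sign turned for CRHBP with library totals (0.15), without the female control (0.82) and without the exposed male library (0.49), and for VIP without the female control (0.38). It turned for NTS with condition and sex as terms (−0.19), without the female control (−0.13) and without the exposed male library (−5.67). It also turned for GAD1 without the male control (−0.037), for NMU and SCG3 without the female control (0.34 and 0.55), and for QPCT with condition and sex as terms (−0.22), without the female control (−0.29) and without the exposed male library (−1.40). With each library left out, these genes ranged from −0.98 to 0.82 for CRHBP, −1.06 to 0.38 for VIP, −5.67 to 3.63 for NTS, −0.037 to 0.71 for GAD1, −2.29 to 0.34 for NMU, −1.40 to 0.80 for QPCT and −0.77 to 0.55 for SCG3. Beyond fewer libraries in a fit, the cause was not tested. No library could be left out of the comparison of the sexes, which would have had no residual degrees of freedom. Fits with 1 library in a condition assume that it varies like the other condition.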

Other observations

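Several peptide receptor genes had no reads in either control library and were too scarce to be tested. NPY2R, a presynaptic neuropeptide Y receptor, had 7 reads in the exposed female and 123 in the exposed male library. OPRM1, the mu opioid receptor, had 4 and 39, and CCKAR, a cholecystokinin receptor, had 7 and 12. In the controls 0 reads allow up to 3 reads, which is 0.196 CPM in the female and 0.266 CPM in the male library. NPVF, the precursor of RFamide-related peptides of the hypothalamus, had 1350 reads in the male control library and 7, 1 and 3 in the female control, exposed female and exposed male libraries, and was not tested. That library is the same that stood apart in choroid plexus markers. Chromogranin A, the CHGA product, is a core protein of dense-core vesicles, and CHGA stood at 917 and 368 CPM in the control and exposed female libraries against 315 and 71.9 in the males. It was lower in males (male minus female −1.95 ± 0.32 on the log2 scale, edgeR adjusted p = 0.00322).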
